A study of Mus musculus with 12 samples.

Results

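The UDP-glucuronosyltransferase (UGT) and carboxylesterase genes were followed in liver RNA of female mice that had lost the aryl hydrocarbon receptor (AHR) or its partner protein ARNT. They were taken by name, as the gene symbols that begin with Ugt1, Ugt2 or Ugt3 or with Ces1 to Ces5 and had 10 or more counts in at least 3 of the 12 libraries. Of 22537 symbols counted, 38 matched by name and 31 were kept. These were 17 UGT genes, of which 8 were Ugt1a, 7 Ugt2 and 2 Ugt3, and 14 carboxylesterase genes, of which 7 were Ces1, 4 Ces2, 2 Ces3 and 1 Ces4. The 7 names under the count minimum were Ugt2a1, Ugt2a2, Ugt2b38, Ces2b, Ces2d-ps, Ces2f and Ces5a, with 0 to 97 counts over all libraries. Ugt1a7c was kept only through libraries of the ARNT groups, since it had 1 to 4 counts in each AHR KO and AHR Flox library. Each library came from a female C57BL/6 mouse aged 6 months that had received a high-fat diet over 13 weeks, and each genotype had 3 mice. The groups were AHR KO, with hepatic loss of AHR, and AHR Flox, the floxed mice of that line, then ARNT KO, with hepatic loss of ARNT, and ARNT Flox, the floxed mice of that line. The labels name neither the recombinase nor the deleted stretch of each gene nor the litters. P-values rest on the spread between libraries of the same group, over these 12 libraries or the fewer that a fit used.

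UGTs sit in the endoplasmic reticulum and join a sugar, usually glucuronic acid taken from UDP-glucuronic acid, to bilirubin, steroids, bile acids and drugs, which makes them water-soluble for excretion. The Ugt1a genes share a locus: each has its own promoter and initial exon, spliced to a common set of downstream exons, while Ugt2 and Ugt3 genes are separate units. AHR pairs with ARNT on DNA and is known for inducing Cyp1 genes and, in the UGT1A family, above all the UGT1A6 genes that act on planar phenols. Carboxylesterases are serine hydrolases that cut esters and amides of drugs and, in liver, of stored triacylglycerol.

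All 31 genes were found in the RefSeq annotation of GRCm38.p6, which is the mm10 assembly. The 8 Ugt1a genes lie on chromosome 1, the 7 Ugt2 genes on chromosome 5, the 2 Ugt3 genes on chromosome 15 and the 14 carboxylesterase genes on chromosome 8. The 7 Ugt2 genes end between 3.12 and 3.55 Mb before the albumin gene Alb. RefSeq promoter windows, 250 bases before and 50 bases after the annotated start, were at hand for 26 of the genes in 27 windows. They were searched on both strands for the AHR-ARNT core GCGTG and for TGACNNNGC, the core of the antioxidant response element bound by NRF2. GCGTG was found in 1 of the 27 windows, that of Ugt1a5, against 32.4% of all 32851 promoter windows. TGACNNNGC was found in 0 of 27, against 12.4% of all windows. Absence says only that these letters are not in these windows. The 250 bases before the start are printed for the 3 genes whose levels separated the mouse groups most clearly below (Ugt1a9, Ugt2b35 and Ces1e). Those of Ugt1a1 and Ugt1a5, from the same locus as Ugt1a9, are printed too, and the likeness of these promoters was not measured. The windows are Ugt1a9 at chr1:88070529-88070778 (plus strand), Ugt1a1 at chr1:88211709-88211958 (plus strand), Ugt1a5 at chr1:88165762-88166011 (plus strand), Ugt2b35 at chr5:87000610-87000859 (plus strand), Ces1e at chr8:93229620-93229869 (minus strand), each 5′ to 3′ on the strand of its gene, with the GCGTG match in capitals. It begins at position −49 from the annotated start of Ugt1a5, and the other 4 windows hold no match.
Ugt1a9: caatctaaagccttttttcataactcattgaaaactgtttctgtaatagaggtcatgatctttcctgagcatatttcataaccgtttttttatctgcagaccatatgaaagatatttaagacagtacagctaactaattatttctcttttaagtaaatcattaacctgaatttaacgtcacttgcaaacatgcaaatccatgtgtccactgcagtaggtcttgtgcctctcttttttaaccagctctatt
Ugt1a1: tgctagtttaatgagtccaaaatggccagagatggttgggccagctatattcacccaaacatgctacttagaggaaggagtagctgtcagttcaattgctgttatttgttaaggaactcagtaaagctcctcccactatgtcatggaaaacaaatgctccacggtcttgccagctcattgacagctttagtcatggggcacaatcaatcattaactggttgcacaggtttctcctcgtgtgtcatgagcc
Ugt1a5: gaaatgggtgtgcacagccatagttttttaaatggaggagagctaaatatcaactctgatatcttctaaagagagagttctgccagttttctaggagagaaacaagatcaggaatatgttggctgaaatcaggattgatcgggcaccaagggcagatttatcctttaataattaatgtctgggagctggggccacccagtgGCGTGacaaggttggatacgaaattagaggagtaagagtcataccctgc
Ugt2b35: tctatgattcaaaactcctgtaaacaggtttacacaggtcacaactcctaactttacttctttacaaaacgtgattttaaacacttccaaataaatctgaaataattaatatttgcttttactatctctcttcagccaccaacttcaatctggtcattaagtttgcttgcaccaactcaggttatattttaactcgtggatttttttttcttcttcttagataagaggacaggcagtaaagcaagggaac
Ces1e: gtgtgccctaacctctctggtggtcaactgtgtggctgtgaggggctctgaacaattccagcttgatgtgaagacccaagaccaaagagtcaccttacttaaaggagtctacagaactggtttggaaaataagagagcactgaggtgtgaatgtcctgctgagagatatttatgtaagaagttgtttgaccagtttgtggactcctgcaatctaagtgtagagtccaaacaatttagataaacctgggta

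The 12 libraries held between 23585909 and 33255004 counts each. Levels are CPM, the count scaled by the TMM-adjusted library total, and the upper limit for a gene with 0 counts, taken as 3, was 0.0902 to 0.127 CPM for counting error alone. The targeted gene Arnt had 25.2, 23.9 and 19.0 CPM in ARNT KO against 47.8, 52.5 and 50.3 CPM in ARNT Flox (log2 change −1.15 ± 0.12 SE, edgeR adjusted p = 0.00601). Ahr had 84.4, 94.8 and 80.3 CPM in the libraries labelled AHR KO against 53.9, 78.8 and 72.4 CPM in AHR Flox, so gene-level counts do not check that label. Hepatocyte markers (14 of 15 in the table) summed to 73179 to 84328 CPM in AHR KO, 140569 to 149018 CPM in AHR Flox, 49794 to 115607 CPM in ARNT KO and 121025 to 143004 CPM in ARNT Flox. Without Alb those sums were 67688 to 77239, 56180 to 62906, 44054 to 63362 and 51321 to 55110 CPM in the same order. Among 5 kidney tubule markers Kap and Slc22a6 were at 0, and the sum did not exceed 0.476 CPM. Among 5 gut markers Alpi and Cdx1 were at 0, while Fabp2 had 91.9 to 199.9 CPM.

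ARNT KO replicate 3 stood apart from its group and from the other libraries, in these genes and over all genes. It held the highest value of the 12 libraries for 9 of the 31 genes and the lowest for 11, which makes 64.5%, against 44.8% of all 13968 genes tested. Its median absolute distance from its group mates was 0.737 log2 units over the 31 genes, against 0.136 to 0.417 for the other libraries. Over all genes that distance was 0.292 for ARNT KO replicate 3 and 0.0965 to 0.214 for the others, and every library lay farther from its mates over the 31 genes than over all genes. The 9 genes at their highest were Ugt1a6a, Ugt1a7c, Ugt1a9, Ugt2b1, Ugt2b35, Ces1a, Ces1g, Ces2c and Ces2e. Those at their lowest were Ugt1a1, Ugt2a3, Ugt3a1, Ugt3a2, Ces1c, Ces1d, Ces1e, Ces1f, Ces2a, Ces3a and Ces3b. In that library cholangiocyte markers summed to 313 CPM, of which Spp1 made 280, against 46.5 and 82.2 CPM in ARNT KO replicates 1 and 2. Macrophage markers summed to 658 against 403 and 417 CPM, and stellate cell markers to 562 against 309 and 412 CPM. Endothelial markers did not rise, at 294 against 266 and 295 CPM, nor did lymphocyte markers, at 8.39 against 8.44 and 9.47 CPM. Hepatocyte markers without Alb summed to 44054 against 63362 and 61922 CPM. The part of these cell types in the values of the UGT and carboxylesterase genes was not tested, and in whole liver fewer hepatocytes and less RNA per hepatocyte cannot be told apart. Counts of called genes, and the ARNT KO values of named genes, are therefore given with and without it.

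**Figure D1:**
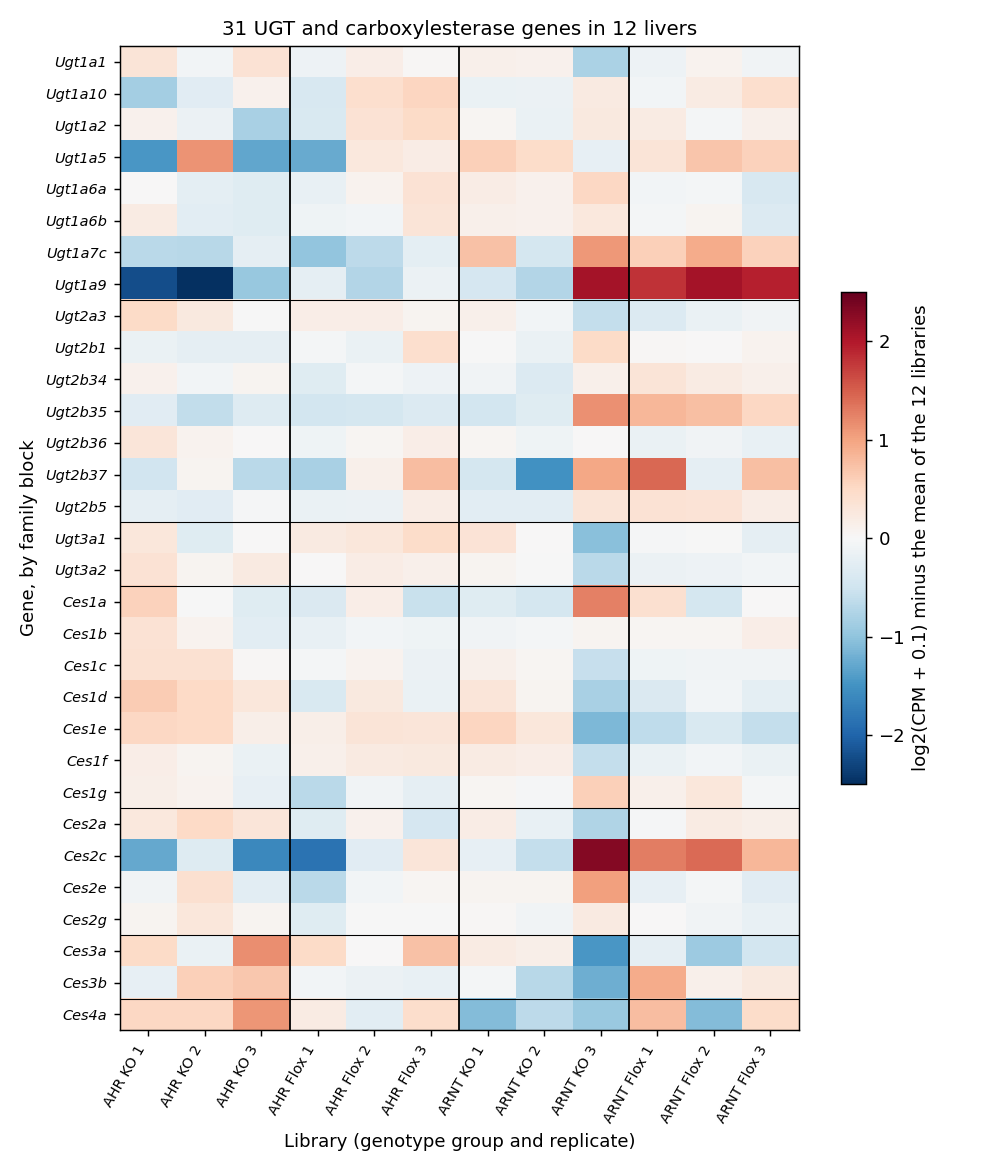
Level of the 31 genes (rows, by family block) in the 12 libraries (columns, 3 per group), as log2(CPM + 0.1) minus the gene's mean over the libraries; red is higher and blue lower. ARNT KO replicate 3 differs from ARNT KO replicates 1 and 2 over most rows, and Ugt1a9 and Ces2c are high in it and in the 3 ARNT Flox libraries.

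The families differed in how evenly their transcripts were spread. The 17 UGT genes summed to 3069 to 3786 CPM per library and the 14 carboxylesterase genes to 5430 to 9589 CPM. Ces1c, the secreted plasma carboxylesterase, held 51.9% of all carboxylesterase counts on average, and Ces1d, a triacylglycerol hydrolase of the endoplasmic reticulum, held 15.8%. No UGT gene held a share like that of Ces1c: Ugt2b34 had 17.8%, Ugt2b36 17.4% and Ugt2b5 15.1% of the UGT counts. Per kilobase of exon the order of mean level was Ces1c (2149 CPM per kb), Ces1d (607), Ugt2b36 (318), Ces3a (289) and Ugt2b5 (282). Within Ugt1a the bilirubin enzyme Ugt1a1 led at 143 CPM per kb, ahead of Ugt1a5 (24.7), Ugt1a9 (21.9), Ugt1a6b (13.0) and Ugt1a6a (11.9), while Ugt1a2, Ugt1a7c and Ugt1a10 lay at 0.139 CPM per kb or less. Between 52.1% and 79.8% of the 50-base windows of each Ugt1a gene occur in another gene, mostly the common exons. How the authors' counting treated such reads is not given, so the split among Ugt1a genes is uncertain. The lengths used also include the common exons, and 54.6% to 90.7% of the exon bases of each Ugt1a gene overlap another gene. The order per kilobase is therefore uncertain for Ugt1a genes, both among themselves and against other genes. Ugt2b5 shares 41.7% of its windows (mostly with Ugt2b38), Ces2c 36.1% (mostly with Ces2d-ps), Ces3b 26.2% and Ces3a 25.6% (with each other), and their values carry the same doubt.

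The most abundant genes by counts of the Ugt1a, Ugt3 and Ces1 blocks are given first. Ugt1a1 had 391, 297 and 399.7 CPM in AHR KO, 287, 351 and 319 CPM in AHR Flox, 340.1, 335 and 181 CPM in ARNT KO, and 288, 330.2 and 294 CPM in ARNT Flox. Ugt3a2, which in humans uses UDP-glucose and UDP-xylose as sugar donors, had 533, 439 and 486 CPM in AHR KO, 419.9, 473 and 457 CPM in AHR Flox, 439, 415 and 261 CPM in ARNT KO, and 375, 383 and 395 CPM in ARNT Flox. For both genes the groups overlapped within each line, and ARNT KO replicate 3 was the lowest library. Ces1c had 5077, 5014 and 3963 CPM in AHR KO, 3737, 4102 and 3484 CPM in AHR Flox, 4242, 4009 and 2613 CPM in ARNT KO, and 3597, 3654 and 3658 CPM in ARNT Flox. The 2 highest Ces1c levels were in AHR KO and the lowest in ARNT KO replicate 3. Ugt1a6a and Ugt1a6b are the genes of this family best known as AHR targets. Ugt1a6a ran from 21.2 to 40.1 CPM over the 12 libraries, with ARNT KO replicate 3 highest, and its values are given with each knockout. Ugt1a6b had 35.6, 25.6 and 25.1 CPM in AHR KO, 28.5, 29.2 and 38.7 CPM in AHR Flox, 33.6, 33.2 and 37.0 CPM in ARNT KO, and 29.7, 32.2 and 24.3 CPM in ARNT Flox. The other Ugt1a genes without values of their own here were Ugt1a5, at 17.1 to 103 CPM with both extremes in AHR KO, and Ugt1a2 and Ugt1a10, which had 3 to 13 counts per library.

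Loss of AHR left no UGT or carboxylesterase gene past the threshold, while most carboxylesterases had higher means in AHR KO than in AHR Flox. With edgeR, 0 of 31 were called at an adjusted p under 0.05, where 0.0788% of all 13968 genes were called, and 3 of the 31 had an unadjusted p under 0.05, against 11.9% of all genes. Those 3, Ces1d, Ces2a and Ces2g, were all higher, and DESeq2 and limma-voom also called 0. Without ARNT KO replicate 3 the count was again 0, with 7 at an unadjusted p under 0.05 against 16.8% of all genes, where 0.966% of all genes were called. Of the 14 carboxylesterases 12 had a positive change and 2 a negative one, with a median log2 change of 0.28, against 0.0052 over all genes tested. Of the 17 UGT genes 8 were positive and 9 negative, with a median of −0.14.

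Ugt1a9, which acts on phenols and drugs, had the most negative change of these genes with AHR loss. It had 5.95, 4.92 and 14.5 CPM in AHR KO against 24.0, 17.0 and 25.4 CPM in AHR Flox, all AHR KO libraries below all AHR Flox libraries. The log2 change was −1.38 ± 0.66 (SE; edgeR adjusted p = 0.441), and −1.38 ± 0.33 (adjusted p = 0.0650) without ARNT KO replicate 3. Ugt1a6a had 28.3, 23.7 and 22.5 CPM in AHR KO against 24.7, 29.6 and 35.8 CPM in AHR Flox, which overlap (−0.27 ± 0.16, adjusted p = 0.540), and Ugt1a6b changed by −0.16 ± 0.16 (adjusted p = 0.757). The 95% interval of the Ugt1a6a change ran from −0.62 to 0.08.

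Log2 changes lay between −0.50 and 0.20 in the Ugt2 block and between −0.31 and 0.11 in the Ugt3 block. Ugt2b1 had 205.0, 196 and 196 CPM in AHR KO against 222, 205.3 and 309 CPM in AHR Flox (−0.30 ± 0.17, edgeR adjusted p = 0.534). These groups almost touched, at 205.0 and 205.3 CPM. In the ARNT groups Ugt2b1 had 228, 206 and 319.8 CPM in ARNT KO against 235, 230.3 and 244 CPM in ARNT Flox. Ugt3a1, which in humans uses UDP-N-acetylglucosamine, had 64.7, 43.2 and 53.0 CPM in AHR KO against 62.1, 64.2 and 72.9 CPM in AHR Flox, with overlap (−0.31 ± 0.27, adjusted p = 0.714). Ugt2b35 did not separate the 2 groups, at 172, 138 and 167 CPM in AHR KO and 152, 155 and 165 CPM in AHR Flox (0.01 ± 0.33, adjusted p = 0.994).

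Among the carboxylesterases, Ces1d had 1823, 1659.5 and 1425 CPM in AHR KO against 895, 1385 and 1045 CPM in AHR Flox. Ces2a, a liver and gut esterase, had 174, 203 and 177 CPM in AHR KO against 117, 155 and 107 CPM in AHR Flox. For both genes every AHR KO library lay above every AHR Flox library, with log2 changes of 0.56 ± 0.25 and 0.55 ± 0.20 (adjusted p = 0.411 and 0.311). In the ARNT groups Ces1d had 1442, 1228 and 671 CPM in ARNT KO against 914, 1125 and 989.8 CPM in ARNT Flox, and Ces2a had 164, 127 and 86.0 CPM in ARNT KO against 142, 166 and 161 CPM in ARNT Flox, which overlap. Ces3b, a liver esterase, had 157, 275 and 290.5 CPM in AHR KO against 174, 164 and 159 CPM in AHR Flox, with AHR KO replicate 1 below the AHR Flox libraries (0.54 ± 0.31, adjusted p = 0.527). Ces4a was near the limit of counting, with 15, 15 and 25 counts in AHR KO and 11, 7 and 11 counts in AHR Flox. Summed over the 14 genes, carboxylesterase transcripts came to 9589, 9266 and 8330 CPM in AHR KO against 6856, 7832 and 7156 CPM in AHR Flox. The sums did not overlap, and the hepatocyte marker sum without Alb, given above, was also higher in all AHR KO than in all AHR Flox libraries. Its part in the carboxylesterase levels was not tested.

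**Figure D2:**
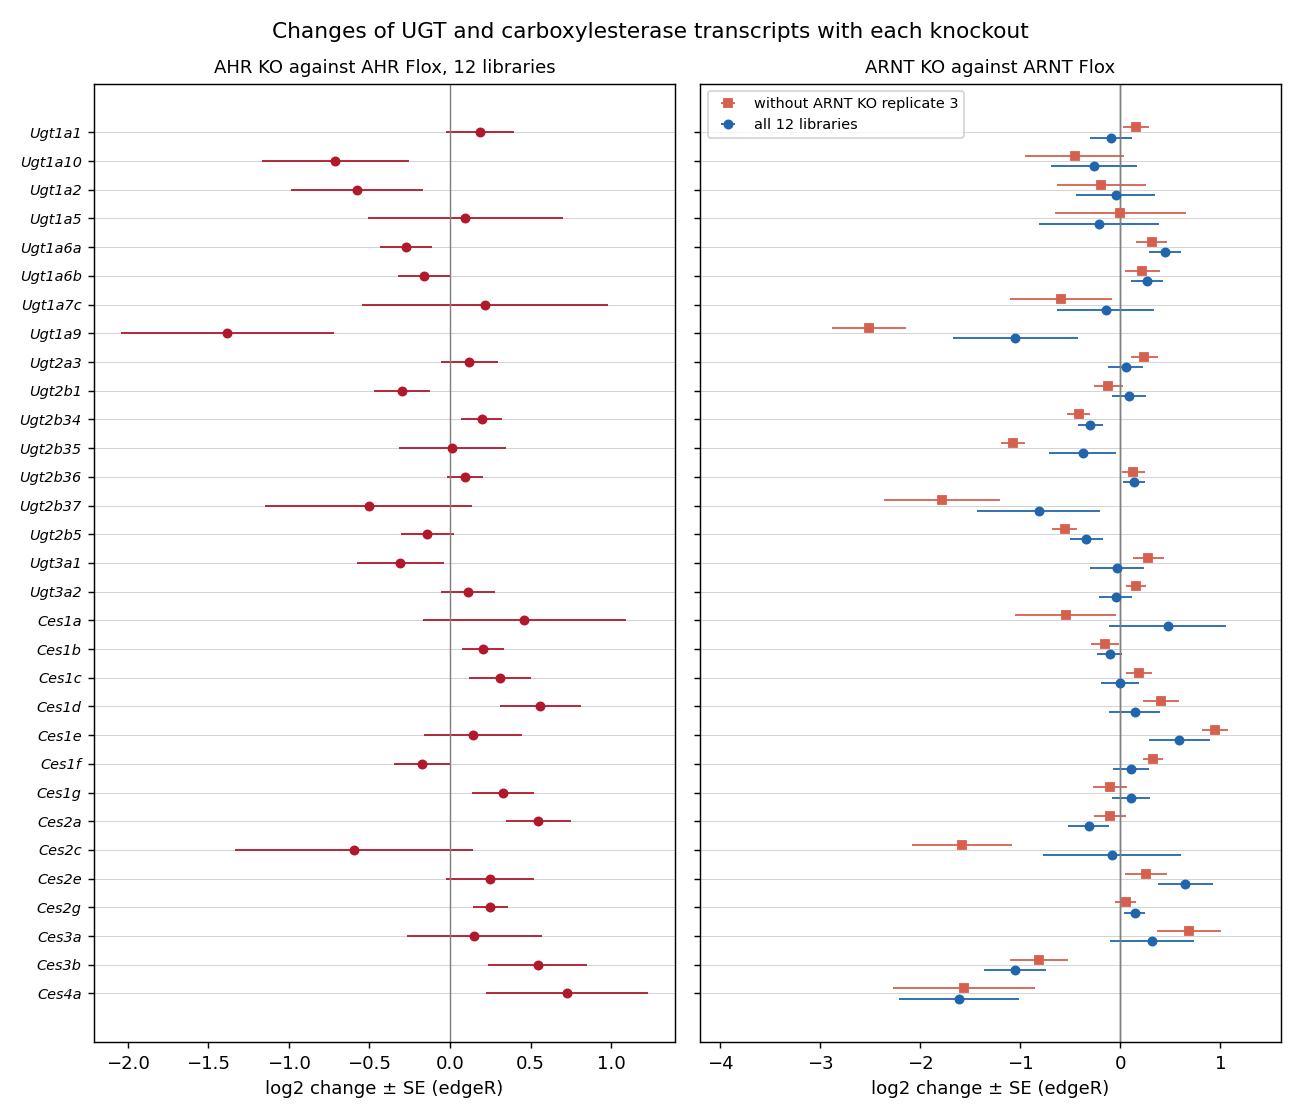
Log2 change ± SE (edgeR) of each of the 31 genes for AHR KO against AHR Flox (left, all 12 libraries) and ARNT KO against ARNT Flox (right, squares without ARNT KO replicate 3 and circles with all 12 libraries). In the right panel Ugt1a9 lies at −2.51 without that library and at −1.05 with it, and most carboxylesterases in the left panel lie above 0.

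Loss of ARNT went with lower Ugt1a9 and Ugt2b35 and higher Ces1e in 2 of the 3 ARNT KO livers, while ARNT KO replicate 3 lay at or beyond the ARNT Flox level in each. With all 12 libraries edgeR called 0 of 31 genes, where 0.0573% of all genes were called. Of the 31, 5 had an unadjusted p under 0.05 (Ugt1a6a and Ces2e higher; Ugt2b34, Ces3b and Ces4a lower), against 5.88% of all genes, and DESeq2 and limma-voom called 0. Without ARNT KO replicate 3 edgeR called 3 of 31, where 1.37% of all genes were called, and 11 of 31 had an unadjusted p under 0.05 (3 higher, 8 lower), against 16.4% of all genes. The 17 UGT genes had a median log2 change of −0.091 (5 positive, 12 negative) with all libraries and −0.12 (7 positive, 10 negative) without that library. The 14 carboxylesterases had medians of 0.11 (8 positive, 6 negative) and −0.024 (7 positive, 7 negative), and all genes 0.0090 and 0.0015.

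Ugt1a9 had 20.98, 17.0 and 119 CPM in ARNT KO against 98.5, 119 and 109 CPM in ARNT Flox. Replicates 1 and 2 were far below the ARNT Flox libraries, and replicate 3 was 6.28-fold above their mean. The log2 change was −1.05 ± 0.62 (adjusted p = 0.910) with all libraries, and Ugt1a9 fell by 2.51 ± 0.37 (5.71-fold, adjusted p = 0.00862) without replicate 3. Ugt2b35, an Ugt2 member on the strand opposite to its neighbours, had 154, 171 and 466 CPM in ARNT KO against 372, 354 and 302 CPM in ARNT Flox. Its log2 change was −0.38 ± 0.33 (adjusted p = 0.980), and it fell by 1.08 ± 0.12 (2.11-fold, adjusted p = 0.00188) without replicate 3. Ces1e, known as egasyn for holding beta-glucuronidase in the endoplasmic reticulum, had 183, 154 and 58.1 CPM in ARNT KO against 81.1, 97.4 and 83.8 CPM in ARNT Flox. Its log2 change was 0.59 ± 0.31 (adjusted p = 0.862), and it rose by 0.95 ± 0.13 (1.93-fold, adjusted p = 0.00574) without replicate 3. In all 3 genes replicate 3 lay on the other side of the ARNT Flox mean from replicates 1 and 2.

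ARNT KO replicates 1 and 2 were also close to the AHR Flox libraries in these 3 genes. Ugt1a9 in AHR Flox ran from 17.0 to 25.4 CPM, Ugt2b35 from 152 to 165 CPM and Ces1e from 140.0 to 157 CPM. For these genes an effect of ARNT loss and a state of the ARNT Flox mice cannot be told apart.

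Other named genes did not pass in either fit. Ugt2b34, the UGT gene with the highest mean count though not per kilobase, had 579, 483 and 669.5 CPM in ARNT KO against 761, 708 and 665 CPM in ARNT Flox (−0.30 ± 0.13, adjusted p = 0.806, and −0.42 ± 0.11, adjusted p = 0.102, without replicate 3). Ugt1a6a had 31.6, 30.2 and 40.1 CPM in ARNT KO against 26.6, 27.0 and 21.2 CPM in ARNT Flox, every ARNT KO library above every ARNT Flox library (0.45 ± 0.16, adjusted p = 0.697, and 0.31 ± 0.16, adjusted p = 0.347, without replicate 3). Ugt1a6b was also higher in every ARNT KO library (0.27 ± 0.16, adjusted p = 0.910, and 0.22 ± 0.18, adjusted p = 0.579, without replicate 3). Ugt3a2 changed by −0.05 ± 0.17 (adjusted p = 1.00) with all libraries and by 0.15 ± 0.10 (adjusted p = 0.459) without replicate 3, so its sign turned with that library. Ces2e, the most abundant Ces2 gene, had 224, 316 and 198 CPM in AHR KO against 149.8, 226 and 246 CPM in AHR Flox. Ces2e had 249, 249.9 and 487 CPM in ARNT KO against 205, 229 and 195 CPM in ARNT Flox (0.65 ± 0.28, adjusted p = 0.802), and without replicate 3 the change was 0.25 ± 0.21 (adjusted p = 0.594).

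Ces3b was lower in the ARNT KO libraries than in the ARNT Flox libraries. It had 174, 111 and 77.4 CPM in ARNT KO against 342, 198 and 214 CPM in ARNT Flox, every ARNT KO library below every ARNT Flox library. The log2 change was −1.06 ± 0.31 (adjusted p = 0.569), and −0.81 ± 0.29 (adjusted p = 0.210) without replicate 3. The AHR Flox libraries had 174, 164 and 159 CPM of Ces3b, all below the ARNT Flox libraries. ARNT KO replicate 1 lay at the upper end of these AHR Flox levels. The other ARNT KO libraries, at 111 and 77.4 CPM, lay below every AHR Flox library. The part of a state of the ARNT Flox mice in the Ces3b difference was not tested. Ces4a had 3, 5 and 4 counts in ARNT KO against 20, 3 and 11 counts in ARNT Flox (adjusted p = 0.721, and 0.303 without replicate 3).

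**Figure D3:**
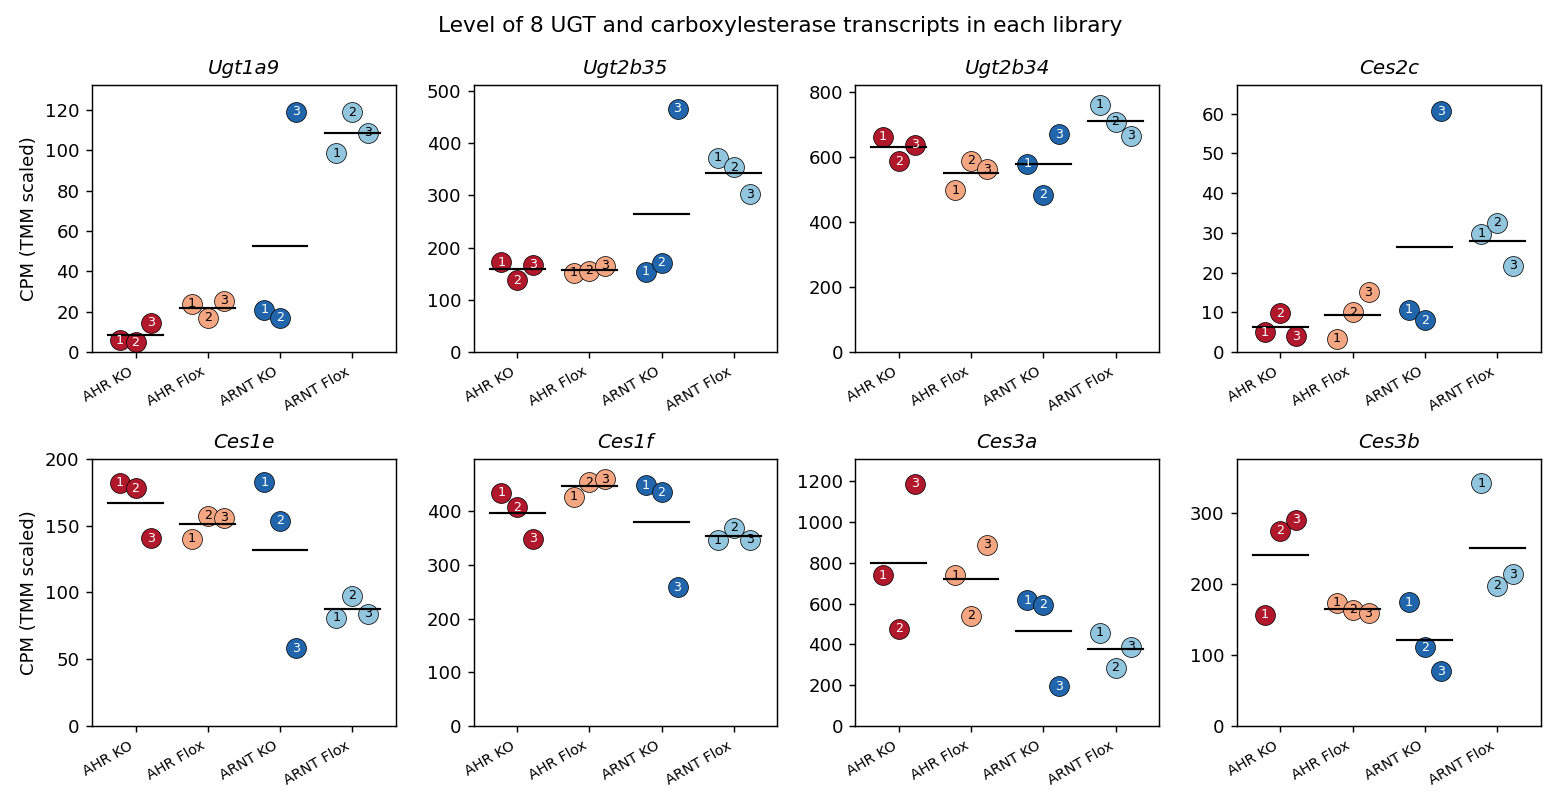
CPM of 8 genes in each library, as numbered points (replicate 1, 2 or 3), with a bar at the mean of each group of 3; the vertical axes start at 0. Ugt1a9 lies at 98.5 to 119 CPM in ARNT Flox and ARNT KO replicate 3 and at 25.4 CPM or less in the other libraries, and Ces1e shows the opposite order.

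The difference between the knockout effects, ARNT KO minus its Flox line less AHR KO minus its Flox line, was called for 0 of 31 genes with all 12 libraries, where 0.043% of all genes were called. There were 5 at an unadjusted p under 0.05 (Ugt1a6a higher; Ugt2b34, Ces2a, Ces3b and Ces4a lower), against 9.51% of all genes, and limma-voom also called 0. DESeq2 called Ces3b (−1.59, adjusted p = 0.0260), for which edgeR gave −1.60 ± 0.44 (adjusted p = 0.291). Its mean was higher in AHR KO than in AHR Flox and lower in ARNT KO than in ARNT Flox. Without ARNT KO replicate 3 edgeR called 2 of 31, where 1.38% of all genes were called, and 11 of 31 had an unadjusted p under 0.05, against 17.2% of all genes. They were Ugt2b35 (−1.08 ± 0.16, adjusted p = 0.00983) and Ces1e (0.81 ± 0.17, adjusted p = 0.0483). The ARNT Flox libraries enter this difference, so the limit named for these 2 genes above holds here too.

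The Flox lines themselves differed in some UGT and carboxylesterase genes in part of the fits, though not in the main fit, a comparison that contrasts no knockout library. With all 12 libraries in the fit 0 of 31 were called, where 0.329% of all genes were called, with 7 at an unadjusted p under 0.05 against 19.9% of all genes. DESeq2 called Ugt1a9 and Ugt2b35 (adjusted p = 0.0413 and 0.0259) and limma-voom 0. Without ARNT KO replicate 3, which enters only through the shared spread, edgeR called 7 of 31, 5 higher and 2 lower in ARNT Flox, where 10.9% of all genes were called. One of the 5 was Ugt1a7c, which met the count minimum only through the ARNT libraries, so its call supports nothing. With the 6 Flox libraries alone 29 of the 31 could be tested and 9 were called, 4 higher and 5 lower in ARNT Flox, where 11.9% of all 13584 genes were called. The SE of the Ugt1a9 difference was 0.65 with all 12 libraries and 0.15 with those 6. Libraries with the same replicate number deviated together across the Flox lines, and a block for that number changed the 12-library counts to 0 of 31 and 23 of all genes, against 46 without it. Among the 6 Flox libraries the blocked fit also called 9, with Ces3b gained and Ugt2a3 lost.

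The 4 genes higher in ARNT Flox were Ugt1a9, Ugt2b35, Ugt2b34 and Ces2c. From the values given above, Ugt1a9 was 4.93-fold higher (2.30 ± 0.15, edgeR adjusted p = 0.000149), Ugt2b35 2.18-fold (1.12 ± 0.09, adjusted p = 0.000506) and Ugt2b34 1.30-fold (0.38 ± 0.09, adjusted p = 0.0374) in the fit of the 6 Flox libraries. Ugt2b34 had 662.5, 587 and 638 CPM in AHR KO and 498, 588 and 561 CPM in AHR Flox, which overlap. Ces2c, a neutral lipid and drug esterase, had 29.8, 32.6 and 21.8 CPM in ARNT Flox against 3.34, 9.98 and 15.03 CPM in AHR Flox (1.59 ± 0.41, adjusted p = 0.0406). In the knockouts Ces2c had 4.98, 9.74 and 3.95 CPM in AHR KO and 10.6, 8.04 and 60.5 CPM in ARNT KO, with ARNT KO replicate 3 highest of all libraries, as for Ugt1a9.

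The 5 genes lower in ARNT Flox in that fit were Ces1e, Ces1f, Ces3a, Ugt2a3 and Ugt3a1. Of these, Ugt2a3 was called in 1 of 22 alternatives and Ugt3a1 in 2 of 22. Ces1e was 1.73-fold lower (−0.79 ± 0.09, adjusted p = 0.00198), and in AHR KO it had 182, 178 and 141 CPM. Ces1f, another triacylglycerol hydrolase, had 346, 369 and 347 CPM in ARNT Flox against 427, 454 and 459.8 CPM in AHR Flox (−0.33 ± 0.07, adjusted p = 0.0246). In the knockouts Ces1f had 435, 407 and 349 CPM in AHR KO and 449, 435 and 259 CPM in ARNT KO. Ces3a had 456, 286 and 388 CPM in ARNT Flox against 739, 540.2 and 888 CPM in AHR Flox (−0.94 ± 0.21, adjusted p = 0.0253). Ces3a, the most abundant Ces3 gene, had 741, 478 and 1188 CPM in AHR KO and 615.5, 595 and 194 CPM in ARNT KO, with ARNT KO replicate 3 the lowest library. Ugt2a3 had 228, 257 and 271 CPM in ARNT Flox against 324, 324 and 302 CPM in AHR Flox (−0.33 ± 0.09, adjusted p = 0.0423). Ugt3a1, at 67.3, 53.7 and 25.6 CPM in ARNT KO, had 51.9, 52.7 and 45.1 CPM in ARNT Flox against 62.1, 64.2 and 72.9 CPM in AHR Flox (−0.41 ± 0.09, adjusted p = 0.0241). In all 9 called genes the Flox lines did not overlap, which adds no support, since the genes were called on these same libraries. Some genes that were not called did not overlap either, among them Ugt3a2 and Ces1g. For Ugt1a7c, chosen through the ARNT libraries, the counts are a description only. It had 11, 3 and 16 counts in ARNT KO, with 10, 13 and 7 counts in ARNT Flox against 1, 2 and 3 counts in AHR Flox, too few for a fold change to be given.

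**Figure D4:**
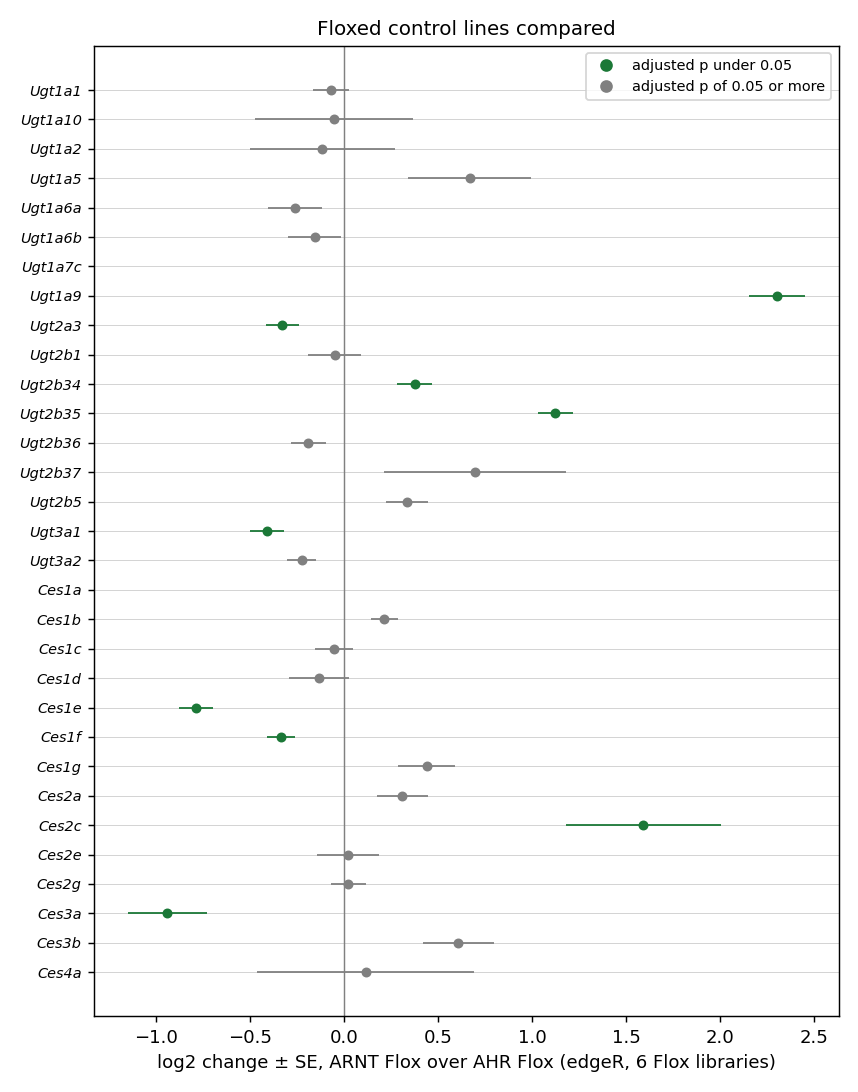
Log2 difference ± SE of each gene, ARNT Flox over AHR Flox, from the edgeR fit of the 6 Flox libraries; green marks an adjusted p under 0.05, and Ugt1a7c and Ces1a have no point because they were not tested there. Ugt1a9 at 2.30, Ces2c at 1.59 and Ugt2b35 at 1.12 lie farthest to the right, and Ces3a at −0.94 and Ces1e at −0.79 farthest to the left.

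Genes that act before, beside or after these enzymes were counted from lists. Supply and use of UDP-glucuronic acid (14 of 16 genes tested) had 0 called in each of the 4 comparisons, with or without ARNT KO replicate 3, and 1 or 2 at an unadjusted p under 0.05. Ugdh, the enzyme that makes UDP-glucuronic acid, had 154, 154 and 562 CPM in ARNT KO against 193, 219.7 and 205 CPM in ARNT Flox. Of 12 transporters 0 were called with all libraries. Abcc4, an efflux pump for glucuronides and other conjugates, had 15.7, 17.1 and 11.9 CPM in AHR KO against 4.97, 8.34 and 4.76 CPM in AHR Flox. It had 12.3, 13.9 and 106 CPM in ARNT KO against 27.9, 35.6 and 30.5 CPM in ARNT Flox. With ARNT KO replicate 3 left out, Abcc4 was called in both knockouts in opposite directions, at 1.30 ± 0.21 in AHR KO (adjusted p = 0.0243) and −1.25 ± 0.22 in ARNT KO (adjusted p = 0.0216). In the same fit Abcc4 was higher in ARNT Flox than in AHR Flox by 2.37 ± 0.21 (adjusted p = 0.000121), so for Abcc4 too an effect of ARNT loss and a state of the ARNT Flox mice cannot be told apart. There 5 of the 12 transporters were called, Abcc3 and Abcc4 higher and Slc10a1, Slc22a7 and Slco2b1 lower in ARNT Flox, where 10.9% of all genes were called. Of 4 genes from haem to bilirubin and of 22 other ester and lipid hydrolases 0 were called with all libraries in the 4 comparisons. When that library was left out, Blvrb, a biliverdin reductase, was called higher in ARNT Flox than in AHR Flox, 3 of the 22 hydrolases (Ephx1, Pon1 and Abhd5) were called there, 2 higher and 1 lower, where 10.9% of all genes were called, and Blvrb was called lower in the difference between the knockout effects.

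Among 20 regulators, counts assigned to Esr1, the gene for the estrogen receptor, were higher in both knockouts with all libraries, and Arnt fell in ARNT KO. The Esr1 difference was 3.78 ± 0.16 log2 units in AHR KO and 2.63 ± 0.15 in ARNT KO (edgeR adjusted p = 8.24e-07 and 2.67e-05). Esr1 had 471, 473 and 468 CPM in AHR KO against 34.9, 37.0 and 30.9 CPM in AHR Flox. Whether all these reads came from the native Esr1 gene was not tested, and the labels do not name the recombinase. Nr1h4, the bile acid receptor, was called higher in ARNT KO without ARNT KO replicate 3 (0.52 ± 0.09, adjusted p = 0.0225). In that fit 4 of the 20 regulators (Nr1h4, Ppara, Nr1h3 and Cebpa) were called lower in ARNT Flox than in AHR Flox, where 10.9% of all genes were called. For Nr1h4 that difference was −0.59 ± 0.09 (adjusted p = 0.00277), and ARNT KO replicates 1 and 2, at 174 and 191 CPM, lay near the AHR Flox libraries, at 183, 212 and 177 CPM, while the ARNT Flox libraries had 128, 131 and 122.5 CPM. The regulators Nfe2l2, Nr1i2, Nr1i3 and Ppara were not called in either knockout. Of 22 readouts of xenobiotic receptors 20 were tested and 0 called with all libraries. Without ARNT KO replicate 3, 6 were lower in ARNT KO than in ARNT Flox (Cyp1a2, Nqo1, Cbr3, Gstm3, Srxn1 and Txnrd1) and 1 was higher (Cyp2b13), where 1.37% of all genes were called. In that fit 9 were higher and 2 lower in ARNT Flox than in AHR Flox, where 10.9% of all genes were called. Every readout called in ARNT KO was also called between the Flox lines. For these readouts except Cyp1a2, whose values are given below, an effect of ARNT loss and a state of the ARNT Flox mice cannot be told apart. The NRF2 readout Nqo1, a quinone reductase, had 14.9, 13.2 and 94.8 CPM in ARNT KO, 31.5, 31.2 and 27.1 CPM in ARNT Flox, and 13.6, 18.05 and 17.4 CPM in AHR Flox. Gstm3, a glutathione transferase, had 36.2, 37.1 and 1278 CPM in ARNT KO, 171, 246 and 188 CPM in ARNT Flox, and 20.6, 43.8 and 39.0 CPM in AHR Flox. Both were thus high in ARNT Flox and highest in ARNT KO replicate 3, as Ugt2b35 and Ces2c were, and the part of NRF2 in those genes was not tested. Not every NRF2 readout was high in ARNT Flox. Gclm had 189, 194 and 166 CPM in ARNT Flox against 178, 167 and 167 CPM in AHR Flox, which overlap. Cyp1a2, an AHR target in liver, had 349.5, 283 and 310.0 CPM in AHR KO against 431, 530.1 and 424 CPM in AHR Flox. Without ARNT KO replicate 3 edgeR called it lower in AHR KO (−0.56 ± 0.11, adjusted p = 0.0446). Cyp1a2 had 291, 265 and 780 CPM in ARNT KO against 780, 836 and 743 CPM in ARNT Flox. ARNT KO replicates 1 and 2 thus lay below all libraries of both Flox lines, and replicate 3 at the ARNT Flox level. The part of a state of the ARNT Flox mice in that difference was not tested. Cyp1a1, the classic AHR readout, had 0.586, 0.421 and 0.314 CPM in AHR KO against 0.477, 0.308 and 0.456 CPM in AHR Flox. Its levels overlapped (log2 change 0.09 ± 0.62, adjusted p = 0.976).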

How the data were processed

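The authors deposited raw read counts for 22537 gene symbols, with 1 column for each of the 12 libraries. Per the labels, total RNA was taken from liver with Trizol, enriched for poly-A RNA and made into libraries with the NEBNext Ultra II kit. Per the submitters' processing notes, the tools included DESeq2 1.20.0, R 3.5.1, bcl2fastq 2.20 and STAR (2.5.4b and 2.6.0c), and the build was mm10. How reads were assigned to genes, including shared reads and strand, is not given in the sources used.

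All genes were tested with edgeR 4.0.16 in R 4.3.3 (TMM scaling, filterByExpr with a minimum count of 10 and total of 15, quasi-likelihood F test, two-sided, 1 mean per group, 12 libraries in 1 fit). P-values were adjusted over all 13968 tested genes with the Benjamini-Hochberg method, with calls made below an adjusted p of 0.05. Values are CPM over TMM-scaled totals, changes are log2 with SE from the fit. Alternatives were median-ratio and upper quartile scaling, plain totals, no filter on low counts, a filter that asks for 1 CPM in at least 3 libraries, limma-voom (limma 3.58.1), DESeq2 1.42.0, only the groups compared, a replicate block and leaving out each library. Added after the data were seen were limma-voom with sample quality weights and the blocked fit of the 6 Flox libraries. The labels pair no samples. Residuals of same-numbered libraries correlated at 0.327, 0.153 and 0.101 between the Flox groups. Between ARNT KO and AHR KO they correlated at 0.164, −0.127 and 0.145. The changes and p-values quoted for the Flox lines come from fits without pairs, and the replicate number entered only as a block in the alternatives. Replicates of a group were not duplicates (chi-square per degree of freedom 17.5 to 249). The model was tested on simulated data.

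One listed item is not reported here. The genes, lists and rules were chosen with earlier results of these data known. Values per library are given for genes called with or without ARNT KO replicate 3, the smallest p per block in each knockout, the most abundant gene per block, Ugt1a1, Ugt1a6a and Ugt1a6b. Ugt2a3, Ces2g and the listed genes that were not called were named after their values were seen. Exon lengths and 50-base windows come from GENCODE M21 on GRCm38, and positions and promoters from RefSeq GRCm38.p6.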

Additional observations from a re-analysis of the deposited data

How the results depend on the processing

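No UGT or carboxylesterase gene was called in AHR KO against AHR Flox under any of the 21 alternatives run there. Members called in ARNT KO against ARNT Flox were 0 with all libraries, 0 to 3 over the fits that left out 1 library (3 without ARNT KO replicate 3) and 7 with limma-voom and sample quality weights. For the difference between the knockout effects they were 0, against 1 with DESeq2, 0 to 2 without 1 library and 1 with quality weights. For ARNT Flox against AHR Flox they were 0, against 2 with DESeq2, 9 with only the Flox groups (9 with the replicate block too), 0 to 7 without 1 library and 10 with quality weights, both the 7 and the 10 counting Ugt1a7c, which was chosen through the ARNT libraries. The Ugt3a2 change in ARNT KO against ARNT Flox was −0.05, lay between −0.18 and 0.15 without 1 library (0.15 without ARNT KO replicate 3) and was 0.091 with quality weights; the cause was not tested. No other change turned its sign among the 28 gene and comparison pairs followed over all alternatives. Outside those pairs, signs in ARNT KO against ARNT Flox did turn without ARNT KO replicate 3. Among them were Ugt1a1, Ugt2b1, Ugt3a1, Ces1c, Ugdh, Nqo1, Gstm3, Srxn1 and Cbr3. Abcc4 turned too, at 0.50 ± 0.64 with all libraries and −1.25 ± 0.22 without that library. Counts over all genes moved more. In AHR KO they were 11, against 28 with no filter, 19 with the 1 CPM filter, 330 with DESeq2, 82 with quality weights and 5 to 136 without 1 library. In ARNT KO they were 8, against 56 with DESeq2, 5 with limma-voom, 1 with only its groups, 3 with the replicate block, 422 with quality weights and 1 to 193 without 1 library. For the difference they were 6, against 144 with DESeq2, 238 with quality weights and 1 to 194 without 1 library. For the Flox lines they were 46, against 558 with DESeq2, 1615 with only their groups (2139 with the block), 23 with the replicate block in 12 libraries, 2395 with quality weights and 12 to 1532 without 1 library. The block changed no call of a UGT or carboxylesterase gene in the knockout comparisons, where same-numbered libraries correlated from −0.0370 to 0.141. Plain totals moved 5 of 84 group means by 1 SD or more. Ugt1a2, Ugt1a7c, Ugt1a10, Ces1a and Ces4a had under 30 counts in every library, which limits what could be seen in them.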
